A study of Drosophila melanogaster with 13 samples.

Results

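The binding of Ubx and of Abd-A was compared in Kc167 cells through the peak lists of Experiment 1. The members were all peaks called for either protein at a q-value of 1e-10 (stringent peaks), 4830 for Ubx and 5656 for Abd-A. Together these were 10486 of the 34149 stringent peaks in the 6 lists of the series. The lists called at a q-value of 1e-2 (relaxed peaks, 8604 for Ubx and 9029 for Abd-A) served as a second list of possible partners. Peaks of the 2 lists were called partners if their overlap made up 5% or more of the length of both.

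Kc167 is a Drosophila cell line from female late embryos that, per the study, expresses no Hox protein of its own and lacks functional Exd and Hth, since Hth is absent and Exd stays in the cytoplasm. Cells were transfected with Ubx-GFP or Abd-A-GFP, a single isoform of each, under the inducible metallothionein promoter, sorted for the same level of GFP, and their chromatin was precipitated with anti-GFP. Each protein had 2 biological replicates, sequenced as 36 bp read pairs, and the reads of both replicates were joined for a single call of peaks against the input of Experiment 1. Each list is therefore 1 pooled measurement with no replicate error, no test between the proteins was possible, and the Wilson 95% intervals cover the counting of peaks only.

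Ubx and Abd-A are neighbouring homeodomain proteins of the bithorax complex. In the embryo Ubx patterns the posterior thorax and anterior abdomen, whereas Abd-A patterns most of the abdomen. Their homeodomains are very similar and recognise the same AT-rich core in vitro. In the animal, Hox proteins commonly bind DNA together with the homeodomain cofactors Exd and Hth, which were not functional in these cells.

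The deposited score of a peak was read as a -log10 q-value, because the lowest scores lay at or just above 10 in the stringent lists and 2 in the relaxed lists. It ran from 10.0 to 409 in the Ubx list (median 36.0) and from 10.6 to 410 in the Abd-A list (median 37.8). Ubx peaks covered 3.14 Mb and Abd-A peaks 4.33 Mb. The bases shared by both lists, 2933 kb, made up 93.3% of the Ubx bases and 67.8% of the Abd-A bases. At the relaxed q-value the shared bases made up 93.0% of the 7.47 Mb of Ubx and 76.1% of the 9.13 Mb of Abd-A. The Ubx territory thus lay largely within that of Abd-A at both q-values, and the converse held less. The lists carry no read counts, so the reads behind a single peak cannot be given. The study states library totals, which were close to each other for the Ubx and Abd-A samples and were not used here.

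Missing partners were concentrated among low scores in both lists. A stringent partner was found for 94.2% of Ubx peaks and 76.1% of Abd-A peaks, which left 278 Ubx peaks (5.76%) and 1349 Abd-A peaks (23.9%) without one. With lists of equal length the shares with a partner were closer, at 89.1% for Ubx and 83.9% for Abd-A. When each list was divided by score into 10 bins of equal size, all 483 Ubx peaks and all 566 Abd-A peaks of the highest bin had a partner. From the middle of the lists the shares parted. In the sixth bin 96.9% of Ubx peaks (94.9 to 98.1) and 81.4% of Abd-A peaks (78.0 to 84.4) had a partner. In the ninth bin it was 82.8% of Ubx peaks (79.2 to 85.9) and 41.4% of Abd-A peaks (37.4 to 45.5). In the lowest bin it was 84.7% of Ubx peaks (81.2 to 87.6) and 28.4% of Abd-A peaks (24.9 to 32.3). The fall towards low scores was shallow for Ubx and steep for Abd-A. With relaxed peaks allowed as partners it was nearly absent, the lowest share of any bin being 99.0% for Ubx and 97.9% for Abd-A.

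**Figure D1:**
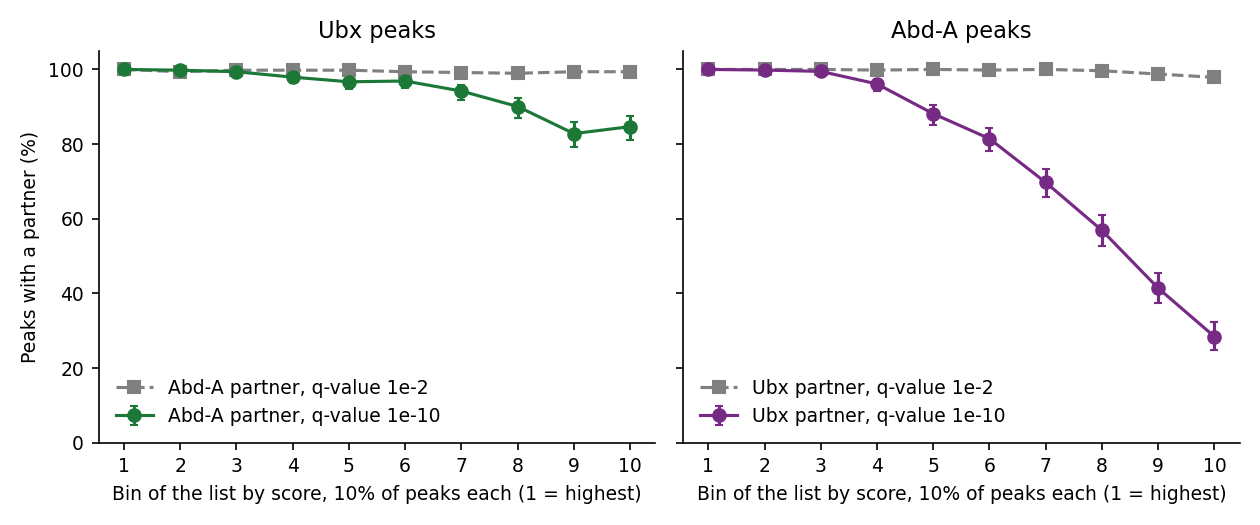
Share of stringent peaks with a partner (%, y axis) in each of 10 bins of the list by score (x axis, 1 = highest), for Ubx peaks on the left and Abd-A peaks on the right. Circles with Wilson 95% bars stand for partners at a q-value of 1e-10 and grey squares for partners at 1e-2. In the lowest bin the stringent share is 84.7% for Ubx and 28.4% for Abd-A, while the relaxed shares stay above 97% throughout.

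Peaks without a stringent partner were narrow and had low scores. Among Ubx peaks their median width was 287.5 bp, against 515 bp for those with a partner, and their median score 21.3, against 37.4. Among Abd-A peaks the median width was 347 bp without and 682 bp with a partner, and the median score 22.4 without and 45.6 with one. Low-scoring peaks were narrow with or without a partner. The median width of all peaks was 341 bp in the ninth and 327 bp in the lowest Ubx bin. For Abd-A it was 373 bp in the ninth and 350 bp in the lowest bin. The narrowest peak of the list was 238 bp for Ubx and 247 bp for Abd-A. No unpaired peak stood near the top of its list. The best rank was 592 of 4830 for Ubx and 1059 of 5656 for Abd-A.

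Nearly all of these peaks had a relaxed partner, namely 277 of the 278 Ubx peaks and 1327 of the 1349 Abd-A peaks. Many of those relaxed partners had themselves a score of 10 or more, the value that corresponds to the stringent q-value if the score is read in this way. This was so for 256 of the 277 relaxed Abd-A partners of Ubx peaks (92.4%) and for 1063 of the 1327 relaxed Ubx partners of Abd-A peaks (80.1%). For 212 Ubx peaks (76.5%) and 911 Abd-A peaks (68.7%), the relaxed partner reached 10 and yet no stringent peak was listed inside it. The median score of the relaxed partners was 17.2 for the Ubx peaks (5.86 to 178) and 14.6 for the Abd-A peaks (2.15 to 195). Such relaxed peaks were common in each list as a whole. Of the relaxed peaks with a score of at least 10, 2160 of 6448 for Ubx (33.5%) and 2041 of 6991 for Abd-A (29.2%) held no stringent peak of the same protein, up to scores of 45.3 for Ubx and 48.9 for Abd-A. A score of 10 in the relaxed list was therefore not the same as a stringent call. Most peaks without a stringent partner thus lay on a called, but relaxed, peak of the other protein.

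**Figure D2:**
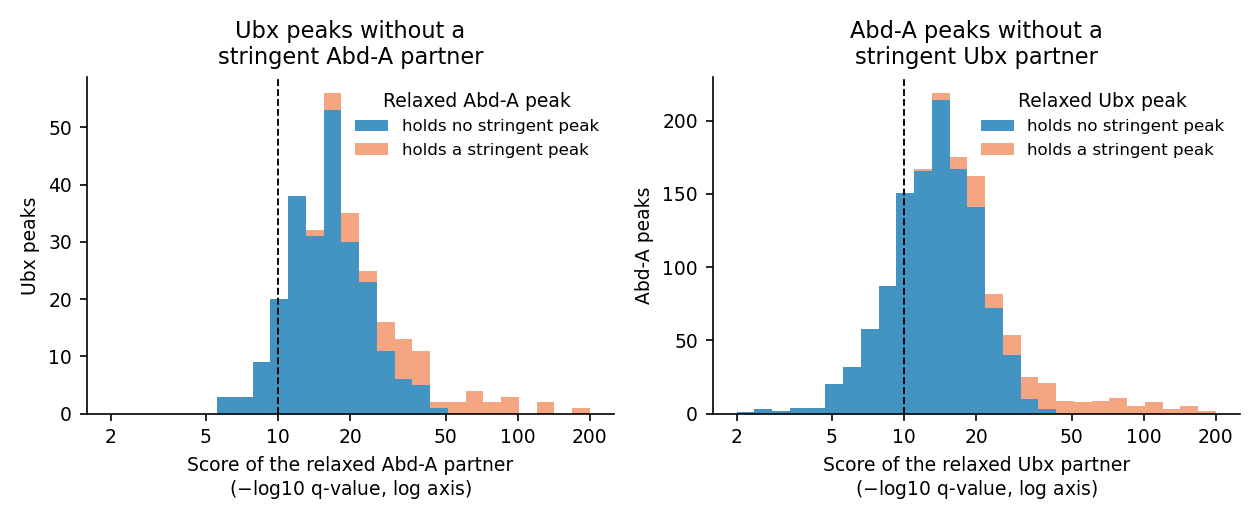
Scores of the relaxed partners (x axis, -log10 q-value on a log axis) of stringent peaks without a stringent partner (number of peaks, y axis), with Ubx peaks on the left and Abd-A peaks on the right. Colours separate relaxed partners that hold a stringent peak from those that hold none, and the dashed line marks a score of 10. To the right of the line lie 256 of 277 partners of Ubx peaks and 1063 of 1327 partners of Abd-A peaks, most of them holding no stringent peak.

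The 3 highest-scoring Ubx peaks without a stringent Abd-A partner all coincided with a relaxed Abd-A peak. The highest lay on X from 20532531 to 20532984 of BDGP release 5, with a score of 84.7 (rank 592), on a relaxed Abd-A peak with a score of 26.9. The next lay on 3R from 17272142 to 17272598, with a score of 65.3 (rank 989), on a relaxed Abd-A peak with a score of 48.9. The last lay on 3R from 23477454 to 23477778, with a score of 58.8 (rank 1177), on a relaxed Abd-A peak with a score of 25.4. The partner of the middle site, at 48.9, was the highest-scoring relaxed Abd-A peak without a stringent one inside.

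For Abd-A, the highest-scoring peak without a stringent Ubx partner lay on 2R from 6746103 to 6746529, with a score of 69.5 (rank 1059) and a relaxed Ubx score of 29.1. On X from 15365989 to 15366283 Abd-A scored 56.3 (rank 1554) and the relaxed Ubx peak 29.3. On 3R from 24122890 to 24123235 Abd-A scored 56.2 (rank 1566) and the relaxed Ubx peak 37.3. None of the 6 relaxed partners held a stringent peak. All 6 sites had a stringent partner in the Abd-B list and in that of Ubx with Hth, as did most peaks. The shares over all peaks were 97.7% for Ubx and 97.1% for Abd-A in the Abd-B list. In the list of Ubx with Hth they were 95.6% for Ubx and 92.5% for Abd-A. In Ubx of Experiment 2 the sites on 3R from 17272142 and on 2R from 6746103 had no stringent partner, while the others had one.

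Without even a relaxed partner were 24 Ubx peaks (0.497% of the list) and 23 Abd-A peaks (0.407%). The likeness of the counts depended on the setting. They were 24 Ubx and 8 Abd-A peaks when the Abd-A list was cut to the length of the Ubx list. When an overlap of 1 bp was enough, they were 0 Ubx and 21 Abd-A peaks. All 24 Ubx peaks lay within or across a relaxed Abd-A peak that was too wide for an overlap of 5%. The Ubx peaks were 249 to 607 bp wide (median 286.5), the 20 relaxed Abd-A peaks that they touched were 5297 to 12280 bp wide, and a Ubx peak covered 3.17 to 4.94% of its relaxed Abd-A peak. Moreover, 23 of the 24 had a stringent Abd-A partner. No Ubx peak of 4830 was clear of every relaxed Abd-A peak (Wilson interval 0 to 0.0795%, for the counting of peaks only). Of the 23 Abd-A peaks, in contrast, 21 touched no relaxed Ubx peak, and only 1 had a stringent Ubx partner.

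The 5 highest-scoring Ubx peaks without a relaxed partner fell in 3 broad Abd-A domains. On 2L, the Ubx peaks from 19165936 to 19166542 (rank 550, score 87.3) and from 19154923 to 19155460 (score 83.2) lay near the 2 ends of 1 relaxed Abd-A peak from 19154288 to 19166567. This domain of 12280 bp held 8 stringent Ubx peaks and 5 stringent Abd-A peaks. On X, the Ubx peaks from 7604719 to 7605161 (score 82.4) and from 7597370 to 7597859 (score 47.5) shared a relaxed Abd-A peak of 10255 bp, with 7 stringent Ubx and 6 stringent Abd-A peaks inside. The peak on X from 2191421 to 2191886 (score 64.7) lay at the start of a relaxed Abd-A peak of 9486 bp. Only 1 Ubx peak had neither kind of partner. It lay on 2R from 7094315 to 7094574 (score 21.2, rank 4032), within a relaxed Abd-A peak of 5355 bp whose score was 268.

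The 21 Abd-A peaks clear of relaxed Ubx peaks lay 194 to 27535 bp from the nearest one (median 1382 bp), 8 of them within 1 kb and 4 beyond 5 kb. The highest-scoring lay on X from 3314547 to 3314815, with a score of 53.3 (rank 1713). The others among the 5 highest-scoring Abd-A peaks without a relaxed partner were on 3R from 20381836 to 20382093 with a score of 36.3, on X from 15980007 to 15980264 with 25.3, on 2R from 8361606 to 8361886 with 23.9 and on X from 12651167 to 12651443 with 23.1. The last of these touched a wide relaxed Ubx peak, as did 1 further peak of the 23. Most were weak, the median score of the 23 being 18.7.

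The peak on X from 3314547 to 3314815 was followed through the other lists. In Experiment 1 the nearest relaxed Ubx peak lay to its left, from 3313899 to 3314178 (score 36.4), where Abd-A had another stringent peak from 3313907 to 3314173 (score 49.9). In the relaxed Abd-A list a single peak from 3313791 to 3314920 (score 53.7) spanned both positions. The nearest stringent Ubx peak of Experiment 1 lay 13108 bp away. In Experiment 2, however, a single stringent Ubx peak from 3313473 to 3314825 spanned both positions, with a score of 162 (rank 41 of 4218). The DNA-binding mutant of Ubx had a stringent peak across them too, from 3312913 to 3314728 (score 113, rank 20 of 1793). This site was unusual among the 21 Abd-A peaks clear of relaxed Ubx peaks. A stringent partner was found for 3 of the 21 in Ubx of Experiment 2 and for 1 in the mutant. Among all Abd-A peaks these shares were 63.8% and 25.2%. Most of the 21 had low scores. Among Abd-A peaks without a stringent Ubx partner in the lowest 30% by score, the shares were 20% and 2.65%. Of the 21 Abd-A peaks clear of relaxed Ubx peaks in Experiment 1, 13 had a relaxed Ubx partner in Experiment 2, 19 had one in Ubx with Hth, and 20 had one in Abd-B. Over all Abd-A peaks the shares with such a relaxed partner were 94.9%, 98.6% and 98.9% in these 3 lists. Among those without a stringent Ubx partner in the lowest 30% by score they were 84.0%, 95.7% and 97.2%. The experiments differed in sequencing platform, read length, culture, number of replicates and, per the study, number of reads, which cannot be told apart here.

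Where the partners matched one to one, the peaks sat at nearly the same place. There were 3996 such pairs. The midpoint of the Ubx peak minus that of the Abd-A peak had a median of 2.0 bp (mean 2.28 ± 106.7, SD over pairs), with the Ubx peak to the right in 2050 pairs and to the left in 1928. The absolute shift had a median of 38.5 bp (quartiles 17.5 and 83.5), which was 6.08% of the Abd-A width at the median. It was at most 50 bp in 2382 pairs (59.6%) and more than 200 bp in 320 (8.01%). There was no preferred side.

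Ubx peaks were the narrower in 3158 of the 3996 pairs (79.0%). The ratio of Ubx width to Abd-A width had a median of 0.865 (quartiles 0.715 and 0.976) and fell below 0.5 in 305 pairs, while it exceeded 2 in 9. The Ubx peak lay wholly inside the Abd-A peak in 2147 pairs (53.7%), the Abd-A peak inside the Ubx peak in 353 (8.83%), and the peaks were staggered in 1496 (37.4%). The trimming was about equal at both ends. The Ubx start lay 39 bp to the right of the Abd-A start and the Ubx end 34 bp to the left of the Abd-A end at the median. The ratio was closer to 1 where Ubx scored high, but hardly varied with the Abd-A score. Across pairs its Spearman coefficient was 0.225 with the Ubx score and 0.0618 with the Abd-A score. In the 10% of pairs with the highest Ubx scores its median was 0.920, with Ubx peaks of 1045.5 bp and Abd-A peaks of 1223.5 bp, and in the lowest 10% it was 0.735, with 339 bp for Ubx and 489.5 bp for Abd-A. The Ubx width is part of the ratio and itself rose with the Ubx score, so the ratio and that score are not independent. The Abd-A width is the other part and rose with the Abd-A score, so the same holds for that score. The difference between the coefficients therefore cannot be read as a difference between the proteins.

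**Figure D3:**
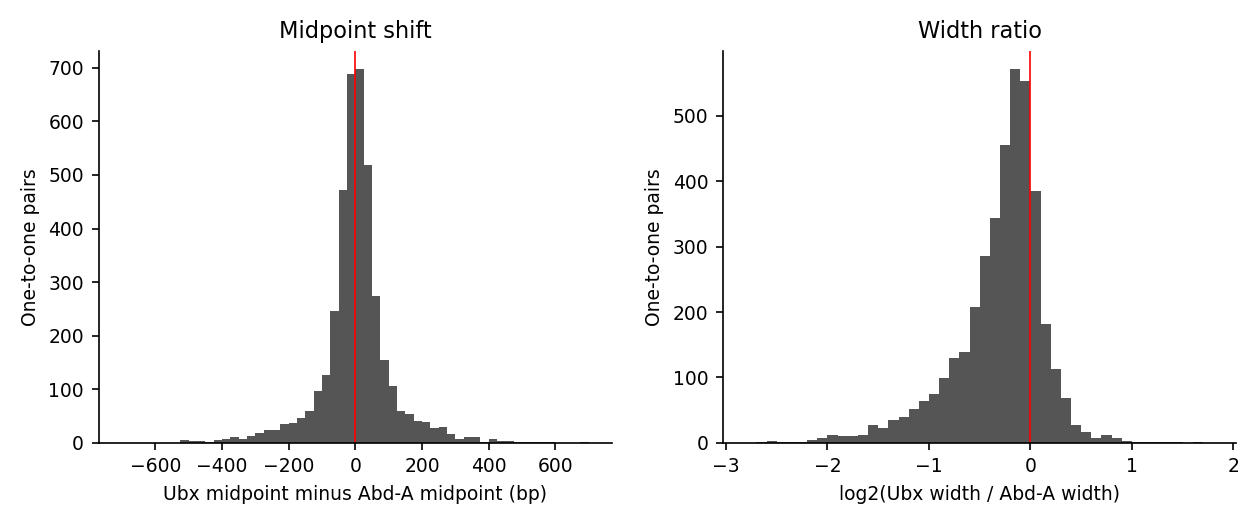
Midpoint shift of the 3996 one-to-one pairs (left, Ubx midpoint minus Abd-A midpoint in bp) and their width ratio (right, log2 of Ubx width over Abd-A width), with the number of pairs on the y axes. The shifts centre on 0 with a median of 2.0 bp, and most ratios lie below 0, the median ratio being 0.865 before the log.

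The pairs with the largest shifts combined a short Ubx peak with 1 end of a long Abd-A peak. On 2L, Ubx from 16818222 to 16818907 lay 677.5 bp right of the midpoint of Abd-A from 16816883 to 16818891. On 3L, Ubx from 16403093 to 16403663 was 577.5 bp right of Abd-A from 16401780 to 16403821, and on 2L, Ubx from 4197748 to 4198428 was 563.5 bp right of Abd-A from 4196601 to 4198448. The smallest width ratios were 0.158 on 3R (Ubx from 7407895 to 7408148, 254 bp, Abd-A 1611 bp), 0.171 on 3R (Ubx from 19136410 to 19136682, 273 bp, Abd-A 1601 bp) and 0.173 on 2R (Ubx from 2518914 to 2519224, 311 bp, Abd-A 1795 bp). The largest ratios were 3.06 on X (Ubx from 21892676 to 21893476, 801 bp, Abd-A 262 bp), 2.79 on 3R (Ubx from 25417354 to 25418121, 768 bp, Abd-A 275 bp) and 2.54 on 3L (Ubx from 17008903 to 17009729, 827 bp, Abd-A 325 bp). All 6 of these pairs at the extremes of the ratio had scores below 46.

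Sites ranked similarly for both proteins. Across the 3996 pairs the Spearman coefficient was 0.833 for the scores and 0.802 for the widths. This describes sites that share 1 input and must pass the same q-value in both lists. With rank given as a percentage of the list, 0 being the highest score, the Ubx rank minus the Abd-A rank had a median of 4.63 percentage points (quartiles -2.49 and 16.1). The positive median goes with the longer Abd-A list, whose low end had few partners. When the pairs were ranked among themselves the quartiles were -9.21 and 9.02, and 2136 pairs (53.5%) lay within 10 points. Of the 100 pairs ranked highest by Ubx, 68 were also among the 100 highest by Abd-A. For the highest 500 pairs the overlap was 383 (76.6%), and for the highest 1000 it was 815 (81.5%). Only 35 pairs lay more than 50 points apart.

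**Figure D4:**
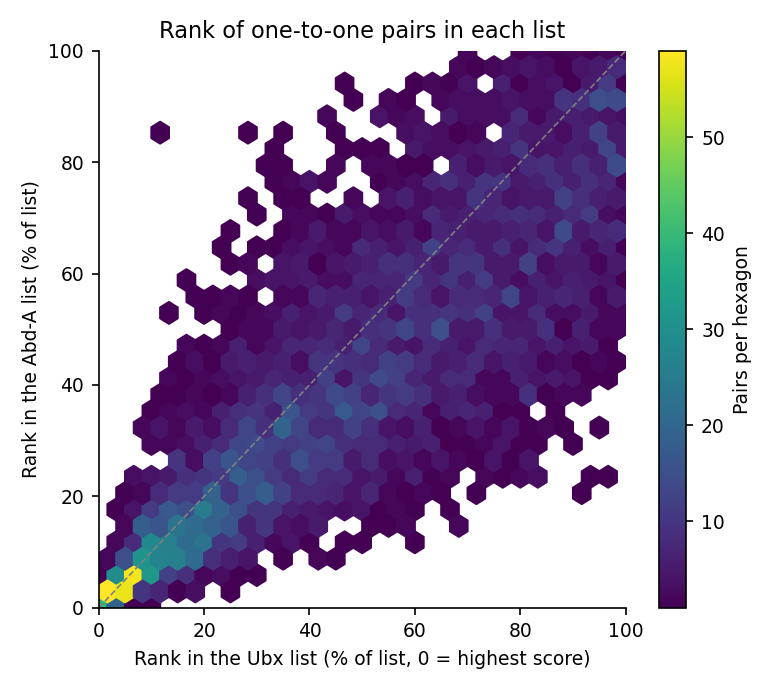
Rank of each of the 3996 one-to-one pairs in the Ubx list (x axis) and in the Abd-A list (y axis), both as % of the list with 0 the highest score; the shade gives the number of pairs per hexagon. The pairs gather along the diagonal, with a Spearman coefficient of 0.833, and spread most in the middle and lower ranks.

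The highest-ranking pair was the top site of both lists, on 2L from 12010010 to 12012823 in Ubx (score 409) and from 12009784 to 12012861 in Abd-A (score 410). It was followed by X from 12628109 to 12630711 (rank 3 in Ubx and 3 in Abd-A), 3R from 12059903 to 12063571 (rank 2 in Ubx and 6 in Abd-A), 3R from 4635743 to 4638037 (rank 9 in Ubx and 2 in Abd-A) and 3R from 14272737 to 14275195 (rank 4 in Ubx and 11 in Abd-A), with positions as in the Ubx list. These 5 sites were 2295 to 3669 bp wide in Ubx, and their width ratios lay between 0.914 and 1.01. The median ratio of the 10% of pairs with the highest Ubx scores, 0.920, lay within this range.

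A few pairs ranked very differently. Ubx ranked far above Abd-A on 2L from 19393754 to 19394146 (score 81.8, rank 639 in Ubx, and score 20.9, rank 4852 in Abd-A). The next were on chromosome 4 from 64323 to 64635 (rank 1416 in Ubx and 4885 in Abd-A) and on 3L from 21278815 to 21279404 (rank 1636 in Ubx and 4804 in Abd-A). Abd-A ranked far above Ubx on 3L from 5945451 to 5945745 (score 16.0, rank 4599 in Ubx, and score 61.8, rank 1314 in Abd-A). The next were on 3L from 11627677 to 11628002 (rank 4482 in Ubx and 1215 in Abd-A) and on 3R from 4541518 to 4542012 (rank 4453 in Ubx and 1358 in Abd-A). With 1 pooled list per protein, the replicate spread of these ranks is not known.

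Matches of 1 peak to several ran mostly in 1 direction. In 251 places 1 Abd-A peak covered 2 or more Ubx peaks, 520 in all, whereas in 25 places 1 Ubx peak covered 2 Abd-A peaks. In 5 further places several peaks of each list were linked. The Abd-A peaks that took several Ubx peaks were wide, with a median of 1893 bp and a highest width of 7505 bp, and stood high in the list, at 20.1% at the median. The gaps between the Ubx peaks inside them were 241 to 1394 bp (median 353 bp), and the Ubx peaks together were 70.6% as wide as the Abd-A peak. In 235 of the 251 places there were 2 Ubx peaks, in 14 there were 3, and in 2 there were 4.

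The broadest example was an Abd-A peak on X from 7585662 to 7593166 (7505 bp, score 123, rank 283), which took 4 Ubx peaks with scores of 127, 109, 62.9 and 45.2. The other Abd-A peak with 4 Ubx peaks lay on X from 19389251 to 19393423 (4173 bp, score 60.5). Its Ubx peaks scored 25.4, 43.7, 33.1 and 55.1. An Abd-A peak of rank 7 on X from 12556529 to 12563169 (6641 bp) took 3 Ubx peaks, with ranks 143, 18 and 1197. In these 3 places the Ubx peaks differed in score by more than 2 times among themselves. In the opposite direction, the highest-scoring Ubx peaks with 2 Abd-A peaks lay on 2R from 13279261 to 13281110 (rank 14, Abd-A ranks 23 and 4737), on 3L from 4553253 to 4554584 (rank 45, Abd-A ranks 220 and 1842) and on 2R from 6428863 to 6431250 (rank 47, Abd-A ranks 230 and 60).

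Both lists were unevenly spread along the chromosomes, and in the same places. The shared places are not independent of the matching above, since 94.2% of Ubx peaks had a stringent Abd-A partner. The gap from a peak to the next had a median of 8.12 kb for Ubx (quartiles 2.12 and 26.1, longest 507) and 6.68 kb for Abd-A (quartiles 1.89 and 20.8, longest 479). Gaps of at most 1 kb made up 15.3% of Ubx gaps and 15.9% of Abd-A gaps. A cluster was taken as 3 or more peaks with gaps of at most 5 kb. There were 449 Ubx clusters with 1755 peaks (36.3% of the list) and 566 Abd-A clusters with 2275 peaks (40.2%). When the Abd-A list was cut to the length of the Ubx list the order turned round, with 36.3% for Ubx and 33.6% for Abd-A. The larger share in Abd-A thus went with the longer list.

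**Figure D5:**
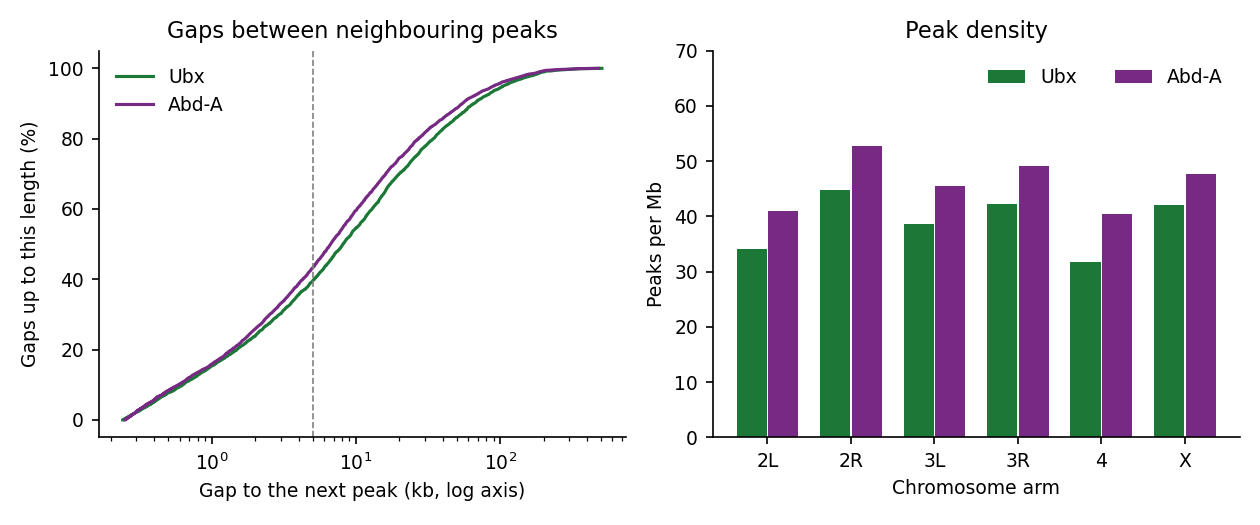
Cumulative share of gaps between neighbouring peaks (left, % of gaps against gap length in kb on a log axis, dashed line at 5 kb) and peaks per Mb on each chromosome arm (right), for Ubx and Abd-A. The Abd-A curve runs slightly left of the Ubx curve, with medians of 8.12 kb for Ubx and 6.68 kb for Abd-A, and the Abd-A bar is the taller on every arm.

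Of the Ubx clusters, 373 (83.1%) touched an Abd-A cluster, and of the Abd-A clusters 371 (65.5%) touched a Ubx cluster. Every peak had a stringent partner in 377 of the 449 Ubx clusters and in 199 of the 566 Abd-A clusters. Ubx peaks without a stringent partner were in clusters less often than those with one (28.1% without and 36.8% with a partner), whereas for Abd-A the shares were 39.4% without and 40.5% with a partner. These shares were not tested against each other. Unpaired Ubx peaks lay 4.54 kb from the nearest stringent Abd-A peak at the median, and unpaired Abd-A peaks 3.98 kb from the nearest stringent Ubx peak. Within 5 kb of such a peak were 143 of 278 Ubx peaks (51.4%) and 761 of 1349 Abd-A peaks (56.4%).

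The Ubx clusters with the most peaks were on 3R from 12047215 to 12080925 (33.7 kb, 14 Ubx peaks and 12 Abd-A peaks, ranks 2 to 4176 in Ubx), on X from 7584668 to 7605161 (20.5 kb, 13 Ubx and 9 Abd-A peaks) and on X from 20924901 to 20944921 (20.02 kb, 10 Ubx and 9 Abd-A peaks). All Ubx peaks of these 3 clusters had a stringent partner. The first holds the third-best pair named above, and the second holds both the broadest Abd-A peak and 2 of the named Ubx peaks without a relaxed partner. The Abd-A clusters with the most peaks were on 3R from 12047208 to 12087083 (39.9 kb, 15 Ubx and 13 Abd-A peaks), on 3L from 8655023 to 8701539 (46.5 kb, 15 Ubx and 13 Abd-A peaks) and on 3R from 10539897 to 10568126 (28.2 kb, 10 Ubx and 11 Abd-A peaks). The stretch of 3R that begins near 12047208 thus held the Ubx cluster with the most peaks and 1 of the 2 Abd-A clusters with 13 peaks, of which that on 3L was the longer. Genes near these clusters were not looked up, since an annotation of release 5 was not used here.

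Among the arms, the density was highest on 2R, with 44.8 peaks per Mb for Ubx and 52.8 for Abd-A. On chromosome 4 it was the lowest in both lists, at 31.7 for Ubx and 40.5 for Abd-A. The share without a stringent partner was similar on all arms, at 2.5 to 6.37% for Ubx and 22.5 to 25.5% for Abd-A. Chromosome 4, with 40 Ubx and 51 Abd-A peaks, stood apart in spacing. Its median gap was 18.4 kb for Ubx and 15.3 kb for Abd-A, and 7.5% of its Ubx peaks and 5.88% of its Abd-A peaks were in clusters. Its 37 pairs had a Spearman coefficient of 0.717 and a median width ratio of 0.766. On the other arms the coefficient was 0.831 to 0.840.

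The other lists of the series, which the matching did not use, also separated paired from unpaired peaks. Of all Ubx peaks 72.8% and of all Abd-A peaks 63.8% had a stringent partner in Ubx of Experiment 2. Among Ubx peaks this was 25.2% without a stringent Abd-A partner (70 of 278, 20.4 to 30.6) and 75.7% with one (3447 of 4552). Among Abd-A peaks it was 23.8% without a stringent Ubx partner (321 of 1349, 21.6 to 26.1) and 76.3% with one (3286 of 4307). The shares of unpaired Ubx and of unpaired Abd-A peaks found in the second Ubx list were not tested against each other. Since unpaired peaks had low scores, the shares were also taken within the lowest 30% of each list. There they were 20.5% without and 52.0% with a partner for Ubx, and 20% without and 44.9% with a partner for Abd-A. At the relaxed q-value of Ubx of Experiment 2 they were 83.8% for unpaired Ubx peaks and 86.0% for unpaired Abd-A peaks, against 96.9% of all Ubx and 94.9% of all Abd-A peaks.

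Abd-B, the third bithorax protein, had a stringent partner at 97.7% of all Ubx and 97.1% of all Abd-A peaks, and at 82.7% of the unpaired Ubx and 91.5% of the unpaired Abd-A peaks. Ubx with Hth had one at 95.6% of all Ubx and 92.5% of all Abd-A peaks, and at 77.0% of the unpaired Ubx and 78.9% of the unpaired Abd-A peaks. The DNA-binding mutant of Ubx had one at 29.8% of all Ubx and 25.2% of all Abd-A peaks, and at 5.76% of the unpaired Ubx and 3.63% of the unpaired Abd-A peaks. In each of these lists the share was lower among unpaired than among all peaks. Within the lowest 30% by score the gaps were smaller for the mutant. There the mutant met 3.90% of Ubx peaks without (1.99 to 7.51) and 8.76% of those with a stringent Abd-A partner (7.32 to 10.5). It met 2.65% of Abd-A peaks without (1.82 to 3.86) and 9.76% of those with a stringent Ubx partner (7.80 to 12.2). The shares with and without a partner were not tested against each other. For Abd-B the shares within the lowest 30% were 83.4% without and 97.6% with a partner for Ubx, and 91.1% without and 96.9% with a partner for Abd-A. For Ubx with Hth they were 75.6% without and 93.9% with a partner for Ubx, and 76.2% without and 91.5% with a partner for Abd-A. With relaxed peaks allowed the gaps narrowed for Abd-B and for Ubx with Hth. Relaxed Abd-B peaks met 98.1% of all Ubx and 98.9% of all Abd-A peaks, and 96.4% of the unpaired Ubx and 97.4% of the unpaired Abd-A peaks. Relaxed peaks of Ubx with Hth met 98.6% of all Ubx and 98.6% of all Abd-A peaks, and 91.4% of the unpaired Ubx and 96.4% of the unpaired Abd-A peaks. For the mutant the relaxed shares were 80.8% of all Ubx and 75.5% of all Abd-A peaks, and 49.6% of the unpaired Ubx and 50.3% of the unpaired Abd-A peaks. The Abd-B list, with 9681 peaks, was the longest.

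Finally, the likeness of Ubx and Abd-A was set beside that of other pairs of lists, each reduced to its 4218 highest-scoring peaks. Ubx of Experiment 1 had a partner in Abd-A for 88.2% of its peaks (87.2 to 89.2), in Ubx of Experiment 2 for 77.7% (76.5 to 79.0) and in Abd-B for 74.0% (72.6 to 75.3). The Spearman coefficient over one-to-one pairs was 0.804 with Abd-A, 0.758 with Ubx of Experiment 2 and 0.343 with Abd-B. The median absolute midpoint shift was 38 bp with Abd-A, 50.5 bp with Ubx of Experiment 2 and 86.5 bp with Abd-B. By all 3 measures the Ubx list of Experiment 1 was closer to Abd-A of the same experiment than to the Ubx list of the other experiment. Only the width ratio was nearer to 1 between the Ubx lists, at 1.08, than between Ubx and Abd-A, at 0.871. Abd-A and Ubx of Experiment 2, different proteins in different experiments, gave values near those of the 2 Ubx lists. A partner was found for 75.8% of Abd-A peaks and 82.7% of Ubx peaks of Experiment 2, whereas between the Ubx lists it was found for 77.7% of the peaks of Experiment 1 and 79.9% of those of Experiment 2. The coefficient was 0.737 and the shift 57.5 bp with Abd-A, and 0.758 and 50.5 bp between the Ubx lists. Protein and experiment cannot be fully told apart in this comparison, because Abd-A was profiled in Experiment 1 only, and with 1 list of each it was not tested.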

How the data were processed

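Per the labels and the study's methods, the authors mapped read pairs with Bowtie 1.0.1 to BDGP release 5 (dm3), and discarded reads with several positions and those in exons of the genes that had been transfected. Both replicates then entered 1 call of peaks by MACS2 2.1.0.20140616, with the input of Experiment 1 as control. The deposited score was read as the -log10 of the q-value of a peak, from its lowest values in the lists rather than from a stated definition, and was ranked only within a list. The lists hold no read counts; the library totals that the study states were not used here. Peak starts are given counting from 1.

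Overlaps were counted with numpy 2.4.6 and pandas 2.3.3 under python 3.11.15. They equalled those of bedtools 2.31.1 in 20 of 20 comparisons, and 2000 of 2000 simulated pairs were classed correctly when tested on simulated data. Correlations came from scipy 1.17.1 and plots from matplotlib 3.10.9. Unpaired means without a stringent partner.

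The members, rules and alternatives were chosen with earlier results of these data known. The regions named are the 5 one-to-one pairs of best mean rank, the 3 with the largest rank difference in each direction, the 3 with the largest shift, the 3 smallest and 3 largest width ratios, the 5 highest-scoring peaks of each list without a relaxed and the 3 without a stringent partner, and in each list the 3 peaks with the most partners (ties by score) and the 3 largest clusters. The Ubx peak without either partner, the other lists at the site on X and the single widest domains were described after their values were seen. Alternatives were an overlap of 1 bp or 50%, lists of equal length, merging of peaks closer than 100 bp, the relaxed lists on both sides, and cluster gaps of 2 or 10 kb. A genome sequence and an annotation of release 5 were not used here, so no sequence or gene is given.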

Additional observations from a re-analysis of the deposited data

How the results depend on the processing

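Of 48 values recomputed for 11 results under 7 alternatives, 22 stayed close to the reported value and 26 moved. With a reciprocal overlap of 50%, partners were found for 77.3% of Ubx and 66.0% of Abd-A peaks, 2848 Ubx and 1441 Abd-A peaks had no relaxed partner, 0 peaks had 2 or more partners, the median shift was 36 bp, the width ratio 0.880 and the Spearman coefficient 0.849. With lists of equal length, the shares were 89.1% for Ubx and 83.9% for Abd-A, 8 Abd-A peaks had no relaxed partner, the coefficient was 0.822 and 33.6% of Abd-A peaks were in clusters. Here only the Abd-A list was cut. The number of Ubx peaks without a relaxed partner and the Ubx share in clusters could therefore not move. With the relaxed lists on both sides, the Abd-A share was 83.9%, pairs numbered 6912, peaks with 2 or more partners 609, the shift was 52 bp, the ratio 0.889, the coefficient 0.877, and clusters held 54.5% of Ubx and 58.0% of Abd-A peaks. With an overlap of 1 bp, 0 Ubx peaks had no relaxed partner. Clusters held 17.6% of Ubx and 17.6% of Abd-A peaks with a gap of 2 kb, and 56.9% of Ubx and 63.9% of Abd-A peaks with 10 kb. Merging changed nothing, since the smallest gap was 241 bp, so its values among the 22 could not move either.

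No paired analysis was possible because each list was called on both replicates together, and no replicate was left out for the same reason. The lists hold no read counts, and the part of depth in the number and width of peaks was not tested. Causes of the moves beyond the construction of each alternative were not tested. All lists share the input of Experiment 1.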

Other observations

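In windows of 100 kb the numbers of Ubx and of Abd-A peaks varied together, which is not independent of the many peaks with a partner in the other list. Across 1203 windows, which neighbouring peaks and the shared input link, the Pearson coefficient of the 2 numbers was 0.933 and the Spearman coefficient 0.937. A window held 4.01 Ubx peaks and 4.70 Abd-A peaks on average, and the variance was 3.05 times the mean for Ubx and 3.18 times for Abd-A. There was no Ubx peak in 166 windows and no Abd-A peak in 147, and 136 windows held neither. The richest window held 27 Ubx peaks, and the richest for Abd-A held 25.

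Relaxed peaks often merged several stringent ones. Of the relaxed peaks, 452 for Ubx and 578 for Abd-A held 2 or more stringent peaks of the same protein, up to 6 in both lists, and these took in 991 stringent Ubx and 1283 stringent Abd-A peaks.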
